A study of Cricetulus griseus with 24 samples.

Results

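Slc12a2-deficient phagocytes that had taken up apoptotic cells were compared with wildtype phagocytes that had done the same, in 8 RNA-seq libraries of the 24 in the study, 4 per genotype, chosen by the genotype in their labels. The phagocytes were LR73, a line of hamster fibroblast-like cells able to engulf dying cells. Both genotypes were kept for 2 h with Jurkat cells, a human T lymphocyte line, that had received 1500 mJ of ultraviolet C light and a further 4 h in culture, so both groups of this comparison had been given apoptotic targets and neither is untreated. Phagocytes positive for CypHer5E, a dye that lights up in acid compartments and so marks engulfed targets, were then sorted by flow cytometry before RNA was taken. The first experiment of the study has 16 libraries of unsorted LR73 cells. Compared from it are 4 libraries of phagocytes alone (control) and 4 of phagocytes with apoptotic cells. Its libraries with the drug cytochalasin D entered the same fit, and those with it alone helped to choose the transcripts carried in with corpses. The sources used here do not say how Slc12a2 was removed or whether the deficient line comes from 1 clone, so the loss of Slc12a2 and any other difference between the lines cannot be told apart.

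Slc12a2 encodes NKCC1, a membrane cotransporter that carries sodium, potassium and chloride into the cell together and so raises internal chloride and cell volume. Kinases of the WNK family sense chloride and, when it is low, switch on SPAK (Stk39) and OSR1 (Oxsr1), which activate NKCC1 and inhibit the potassium and chloride exporters of the KCC type. Phagocytes that ingest a dying cell take on its volume, ions and macromolecules, and the uptake is normally accompanied by a programme that restrains inflammation.

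The libraries held 23059998 to 28838553 counted fragments each. Levels are given in CPM (counts scaled to a common library size with TMM factors), as mean ± SD over 4 libraries per genotype, and fold changes, written on the log2 scale as deficient over wildtype, come from edgeR with p values adjusted over 13050 tested genes. A gene was called changed at an adjusted p under 0.05. The series' design text calls the libraries biological replicates, without saying whether they are separate cultures. Genotype separated the libraries on the first principal component, with 74.7% of the variance, and libraries numbered 9 to 12 separated from those numbered 13 to 16 on the second, with 7.39%. Of 12 fibroblast markers, 6 had a mean of at least 1 CPM, among them Vim, Fn1, Dcn and Pdgfrb. The others, Col1a1, Col1a2, Col3a1, Thy1, Lum and Fap, had a mean below 1 CPM. Of 23 T lymphocyte markers, 8 were at 0 in all 8 libraries, including the defining genes Cd3e, Cd3g and Zap70. A further 5 had a mean of at least 1 CPM. The summed level of the T lymphocyte markers was 52.3 to 57.0 ppm of counts in the wildtype and 39.5 to 50.8 ppm in the deficient libraries (p = 0.0286 by a two-sided exact permutation test, 0.0952 after Benjamini-Hochberg adjustment over 10 composition measures). The deficient libraries had counts in 16589 to 17150 genes and the wildtype libraries in 17269 to 17429 (exact permutation p = 0.0286, adjusted p = 0.0952), and the part of this in the gene results was not tested.

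The target gene was measured first. Slc12a2 stood at 93.4, 91.2, 99.5 and 103 CPM in wildtype and 25.4, 22.4, 24.7 and 26.2 CPM in deficient libraries. The groups did not overlap, and the deficient mean was 25.5% of the wildtype mean (log2 -1.97 with an SE of 0.06, adjusted p = 1.14e-12 by edgeR, and two-sided exact permutation p = 0.0286, the smallest that 70 assignments allow). Transcript was still present in every deficient library. Of the 3 tested genes on each side of Slc12a2 in the reference gene order, Isoc1 had a log2 fold change of -0.07 (edgeR adjusted p = 0.399), Prrc1 was lower by 0.30 and Slc27a6, a fatty acid transporter, by 0.75 on the log2 scale (edgeR adjusted p = 0.0190 and 0.00710), and the unnamed LOC100768743 and LOC100753290 were higher by 0.35 and 0.25 (edgeR adjusted p = 0.0207 and 0.0152). The calls of Prrc1, LOC100768743 and LOC100753290 were lost without single libraries, at log2 changes of -0.21 to -0.26 for Prrc1 (without wildtype library 9 or 10 or deficient library 16), 0.27 and 0.31 for LOC100768743 (without deficient library 16 or wildtype library 10) and 0.21 for LOC100753290 (without wildtype library 14). Of the neighbours whose values are given here, none shifted as far as Slc12a2.

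Across the transcriptome the genotypes differed widely but mostly by small amounts. Of 13050 genes tested, 5545 were called (42.5%), 2759 higher in deficient cells (21.1%) and 2786 lower (21.3%), with a median absolute log2 change of 0.35 among them. Of these, 194 were higher and 510 lower by at least 2-fold, together 5.39% of those tested, so larger changes were more often decreases. CPM values of the genotypes did not overlap for 5173 genes (39.6%). With so large a share of genes called, the counts in the gene groups below are set against these background shares. Library numbers 9 to 12 alone gave 3694 called genes and numbers 13 to 16 alone 5479.

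**Figure D1:**
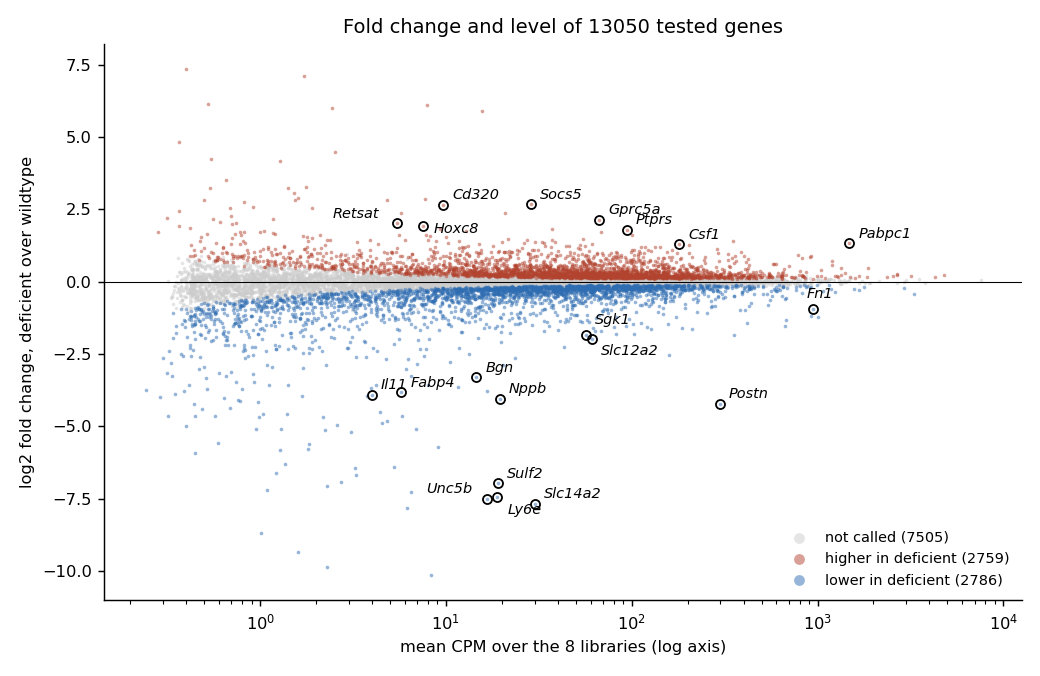
Each point is 1 of 13050 tested genes, with its mean CPM over the 8 libraries on a log axis and its log2 fold change, deficient over wildtype, on the vertical axis, coloured by whether edgeR called it. The tail below 0, with genes such as Slc14a2, Unc5b, Ly6e and Postn, reaches further from 0 than the tail above it, where Socs5 and Cd320 lie highest among the labelled genes.

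The genes with the largest decreases were nearly silent in deficient cells. The urea transporter Slc14a2 stood at 53.4, 56.6, 65.2 and 64.1 CPM in wildtype libraries and at 0.128, 0.255, 0.431 and 0.311 CPM in deficient ones (log2 -7.68 with an SE of 0.15, adjusted p = 1.2e-14 by edgeR). The receptors for the guidance protein netrin Unc5b (33.1 ± 2.93 against 0.181 ± 0.0602 CPM) and Unc5c (8.46 ± 0.490 against 0.372 ± 0.0866 CPM) showed the same loss, as did the membrane protein Ly6e (37.3 ± 2.47 against 0.211 ± 0.0735 CPM), the heparan sulphate sulphatase Sulf2 (37.9 ± 5.77 against 0.304 ± 0.117 CPM) and Tdgf1, a coreceptor for nodal (17.7 ± 1.67 against 0.337 ± 0.166 CPM). Each of these had an edgeR adjusted p of 5.76e-12 or less and no overlap between genotypes. The protocadherin Pcdh12 had 294, 269, 338 and 341 counts in the wildtype libraries and 2, 2, 1 and 0 in the deficient ones. Pcdh12 was 1 of 6 genes that had at least 4 CPM in wildtype cells and no more than 3 counts in any deficient library, with Vopp1, Lrrc2, Crnn, Clec11a and LOC103159201, while 1 gene, LOC100761756, was so reduced in wildtype cells. Further genes were lower without being lost. The cardiac peptide hormone Nppb went from 36.7 ± 2.79 to 2.24 ± 0.518 CPM (log2 -4.04 with an SE of 0.12, adjusted p = 7.76e-13 by edgeR), the fatty acid binding protein Fabp4 from 10.8 ± 0.565 to 0.763 ± 0.213 CPM, the fatty acid activating enzyme Acsl6 from 14.7 ± 1.58 to 1.24 ± 0.158 CPM, the organic anion transporter Slco4a1 from 11.8 ± 1.77 to 1.22 ± 0.282 CPM and the tyrosine phosphatase Ptpn3 from 10.8 ± 2.53 to 1.34 ± 0.296 CPM.

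Among genes with a symbol and a mean of at least 4 CPM, increases were smaller. Socs5, of the suppressor of cytokine signalling family, stood at 9.57, 10.4, 5.64 and 5.48 CPM in wildtype libraries and at 47.9, 49.2, 51.6 and 50.7 CPM in deficient ones, with no overlap (log2 2.69 with an SE of 0.14, adjusted p = 8.02e-10 by edgeR). The transcobalamin receptor Cd320 was higher by 6.35-fold (2.63 ± 0.790 against 16.7 ± 1.56 CPM), the retinoic acid-inducible receptor Gprc5a by 4.42-fold (24.8 ± 6.19 against 109 ± 4.65 CPM), the retinol saturase Retsat by 4.05-fold and the receptor phosphatase Ptprs by 3.48-fold. The homeobox gene Hoxc8 was higher by 3.82-fold, at 11.9 ± 1.07 against 3.13 ± 0.191 CPM, while Hoxc10, of the same Hox cluster, was lower by 1.02 on the log2 scale. The decoy receptor for interleukin 13, Il13ra2, was higher by 3.25-fold (log2 1.70 with an SE of 0.13, adjusted p = 5.15e-08 by edgeR), and the calcium channel subunit Cacna2d3 by 2.98-fold. Socs5, Cd320 and Ptprs lie in 1 run of neighbouring genes that were higher together, and Retsat in another, both described further on. In phagocytes with apoptotic cells of the first experiment, normalized separately, Cd320 was at 18.2, Gprc5a at 109 and Hoxc8 at 9.39 CPM. On the log2(CPM + 0.5) scale, 106 of 194 genes higher by at least 2-fold were nearer that group in deficient cells, and 88 in wildtype. For the 510 lower ones the counts were 249 and 261. Which line had changed was not tested. Among abundant genes, the translation initiation subunit Eif3a (895 ± 13.5 against 1485 ± 72.1 CPM), the ubiquitin ligase Nedd4, the lysyl-tRNA synthetase Kars and the calcium-binding protein Calu were higher by 1.66 to 1.88-fold, all with an edgeR adjusted p of 2.55e-09 or less.

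The chloride and volume genes were examined next, in 4 lists. Of 9 chloride cotransporter genes in the table, 6 were tested, and beside Slc12a2 the potassium and chloride exporter Slc12a4 (log2 0.21, edgeR adjusted p = 0.00193) was slightly higher, with no overlap between genotypes. The log2 fold change was 0.06 for Slc12a7 and -0.05 for Slc12a9 (edgeR adjusted p = 0.385 and 0.623). Of 12 genes of the WNK pathway and its regulators 8 were tested, with 2 higher and 2 lower, against 21.1% and 21.3% of all tested genes. The kinase Stk39 was higher by 0.15 on the log2 scale (edgeR adjusted p = 0.0107), whereas Oxsr1 did not pass the test (499.8 ± 8.81 against 489 ± 11.0 CPM, edgeR adjusted p = 0.564). Of the 2 scaffold proteins that activate these kinases, Cab39l was 1.95-fold higher (log2 0.96 with an SE of 0.07, adjusted p = 2.51e-08 by edgeR) and Cab39 was lower by 0.12, a call lost without any of wildtype libraries 9, 10 and 13 or deficient library 15 (log2 -0.10 to -0.12).

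Sgk1, a kinase induced by serum, glucocorticoids and changes of cell volume, was lower in deficient cells. Its level was 68.1, 79.7, 103 and 103 CPM in wildtype libraries and 20.5, 22.4, 27.8 and 27.5 CPM in deficient ones, so that the lowest wildtype library was above the highest deficient one (log2 -1.85 with an SE of 0.13, adjusted p = 1.24e-08 by edgeR). Among 24 volume-regulated and other chloride channel genes, 17 were tested. Of these, 3 were higher and 5 lower, against 21.1% and 21.3% of all tested genes. The lower ones included 2 subunits of the volume-regulated anion channel, Lrrc8a (32.6 ± 2.52 against 24.3 ± 2.01 CPM, log2 -0.42) and Lrrc8c (130.1 ± 4.51 against 91.5 ± 6.94 CPM, log2 -0.51), as well as Ttyh3 and Clic4 (edgeR adjusted p from 2.17e-06 to 0.000232 for the pair of subunits). The urea transporter Slc14a1 was lower by 1.24 on the log2 scale, and the water channel Aqp1 higher by 0.89, at 64.7, 62.6, 37.2 and 40.2 CPM in deficient and 33.4, 30.9, 23.0 and 23.5 CPM in wildtype libraries. The osmotic stress transcription factor Nfat5 was higher by 0.26 (edgeR adjusted p = 0.0133), with overlapping groups, a call lost without deficient library 11 (log2 0.22). In the osmotic and ion balance list as a whole, 18 of 24 genes were tested. Of these, 5 were higher and 7 lower, against 21.1% and 21.3% of all tested genes.

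**Figure D2:**
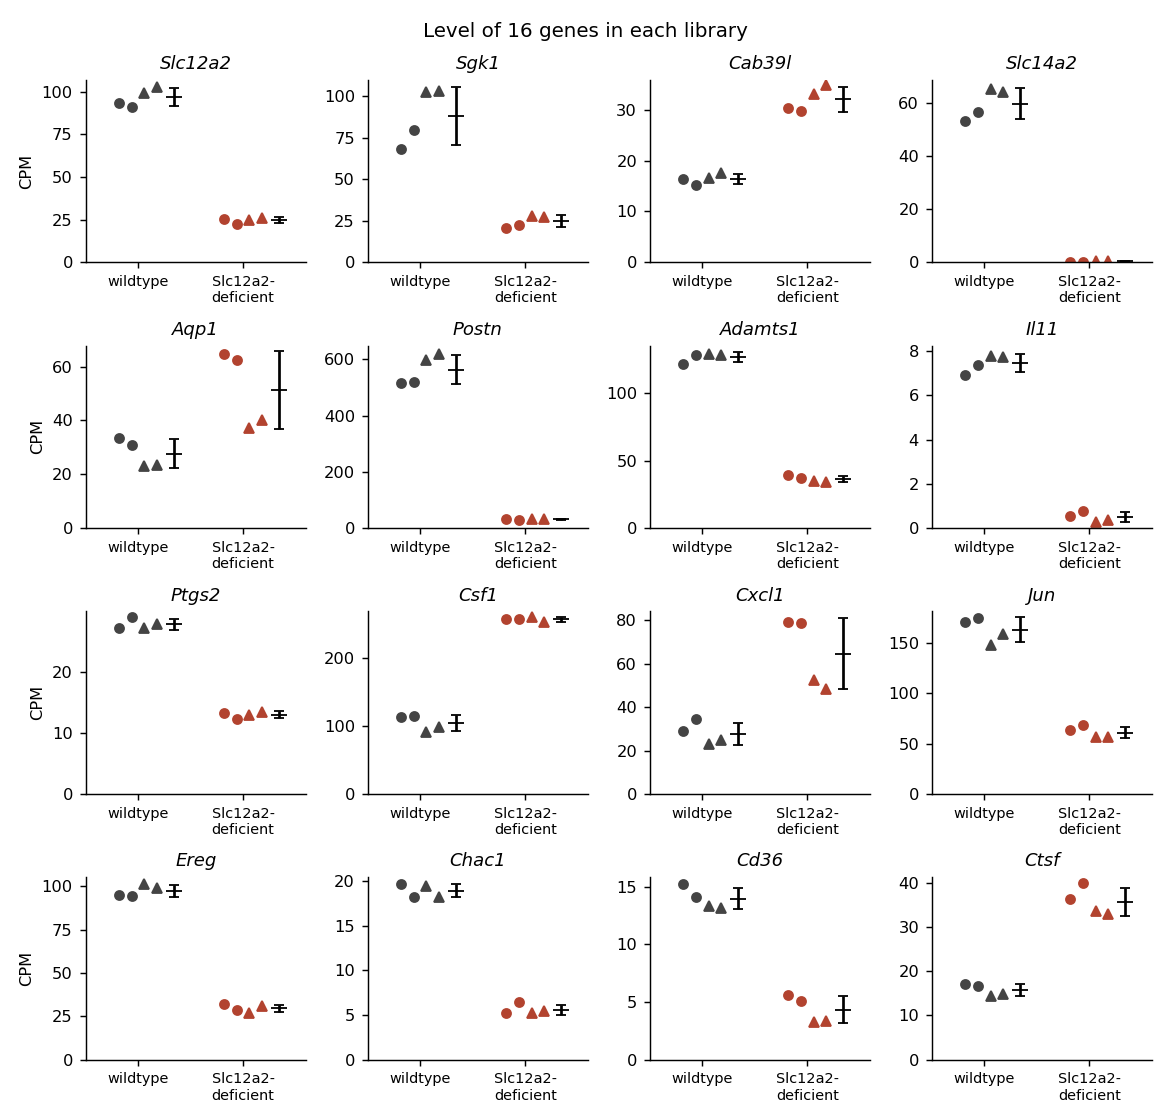
Level in CPM of 16 genes in each of the 8 libraries, with circles for library numbers 9 to 12, triangles for 13 to 16 and a bar with whiskers for the mean ± SD of 4 libraries, on linear axes that start at 0. Slc12a2, Sgk1, Slc14a2, Postn, Adamts1, Il11, Ptgs2, Jun, Ereg, Chac1 and Cd36 were lower and Cab39l, Aqp1, Csf1, Cxcl1 and Ctsf higher in deficient libraries.

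Genes of the extracellular matrix were mostly lower in deficient cells. Of 28 collagen genes in the table, 15 were tested, and 11 of these were lower and none higher, against 21.3% and 21.1% of all tested genes. The median log2 change over the 15 was -0.64, against -0.0018 over all tested genes. Col7a1, which forms anchoring fibrils, was the most abundant of those named, at 407, 597, 593 and 563 CPM in wildtype and 284, 323, 226 and 250.4 CPM in deficient libraries (log2 -0.996 with an SE of 0.11, adjusted p = 4.37e-06 by edgeR). Col3a1, Col4a1 and Col6a3 were lower by 2.53, 3.27 and 3.14 on the log2 scale but from only 1.08 to 1.57 CPM, and Col6a1 and Col6a2 were lower by 0.60 and 0.92. The values for Col8a1, Col9a1, Col11a2 and Col18a1 did not pass the test. Among 45 other matrix genes, 26 were tested, with 15 lower and 3 higher, against 21.3% and 21.1% of all tested genes. Periostin, Postn, was lower in each deficient library than in any wildtype one, at 517, 521, 599 and 619.9 CPM in wildtype and 31.1, 27.5, 31.1 and 31.8 CPM in deficient cells (log2 -4.22 with an SE of 0.07, adjusted p = 7.14e-15 by edgeR). The proteoglycan Bgn (26.4 ± 1.27 against 2.66 ± 0.210 CPM), the crosslinking enzyme Loxl1 (53.7 ± 0.857 against 18.4 ± 2.54 CPM), fibrillin Fbn1 (log2 -1.46) and fibronectin Fn1 (1248 ± 49.7 against 654 ± 101 CPM, log2 -0.93) were lower too, with edgeR adjusted p of 2.39e-07 or less. The 3 higher matrix genes were Matn2, Loxl4 and the laminin chain Lamb1 (log2 1.03, 0.57 and 0.21). Thrombospondin 1, Thbs1, was at 195, 206, 168 and 166 CPM in wildtype and 213, 211, 129.6 and 134 CPM in deficient libraries. The groups overlapped (log2 -0.09 with an SE of 0.14, adjusted p = 0.623 by edgeR). Among the lower library numbers, deficient values of 213 and 211 CPM were above wildtype values of 195 and 206 CPM. Among the higher library numbers, deficient values of 129.6 and 134 CPM were below wildtype values of 168 and 166 CPM. The pooled change thus joins opposite directions, and does not show that the genotypes were alike.

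Enzymes that cut the matrix followed. Of 39 metalloprotease, plasminogen activator and inhibitor genes, 24 were tested, with 17 lower and 3 higher, against 21.3% and 21.1% of all tested genes. The aggrecanase family member Adamts1 stood at 122, 129, 129 and 129 CPM in wildtype and 39.6, 37.2, 35.2 and 34.3 CPM in deficient libraries, a 3.47-fold decrease (log2 -1.80 with an SE of 0.05, adjusted p = 7.76e-13 by edgeR). Adam12, the stromelysin Mmp10 and the inhibitor Timp1 were lower by 1.60, 1.04 and 0.96 on the log2 scale (edgeR adjusted p = 1.05e-08, 2.07e-05 and 3e-08). In the other direction the inhibitor Timp2 was higher by 0.33. Of 30 ligand and receptor genes of the BMP and TGF-beta pathway 22 were tested. Of these, 8 were lower (5 without wildtype library 14) and none higher, against 21.3% and 21.1% of all tested genes. The receptor Tgfbr2 went from 302 ± 22.5 to 145 ± 8.79 CPM (log2 -1.06 with an SE of 0.06, adjusted p = 1.09e-09 by edgeR), the ligand Bmp2 was lower by 1.27, and Tgfb1, a ligand that restrains inflammation, by 0.57 on the log2 scale. Targets of the pathway went both ways, with 4 higher and 4 lower among 13 tested, against 21.1% and 21.3% of all tested genes. Id1, an inhibitor of DNA binding, was lower, at 22.1 ± 1.81 against 11.8 ± 1.12 CPM (log2 -0.90 with an SE of 0.08, adjusted p = 3.41e-07 by edgeR), its relative Id2 was higher, at 13.5 ± 3.40 against 27.8 ± 7.84 CPM (log2 1.04 with an SE of 0.19, adjusted p = 0.000339 by edgeR), and Id3 did not pass the test (log2 0.05, edgeR adjusted p = 0.791). Of 12 fibroblast markers, 7 were tested and 6 of these were lower, against 21.3% of all tested genes. Among the lower ones were the receptor Pdgfrb (6.71 ± 0.422 against 1.38 ± 0.472 CPM) and decorin Dcn, while Vim was higher by 0.20. The summed level of the 12 was 4361 ± 112 ppm of counts in wildtype and 4100 ± 145 ppm in deficient libraries (exact permutation p = 0.0571).

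Genes of inflammation were changed in both directions. Of 32 cytokine, chemokine and inflammatory receptor genes 18 were tested, with 7 higher and 8 lower, against 21.1% and 21.3% of all tested genes. The macrophage growth factor Csf1 was higher, at 113, 114, 90.6 and 97.7 CPM in wildtype and 257, 257, 260.0 and 252 CPM in deficient libraries (log2 1.30 with an SE of 0.06, adjusted p = 3.16e-10 by edgeR). The neutrophil chemokine Cxcl1 stood at 28.9, 34.3, 23.0 and 24.8 CPM in wildtype and 79.1, 78.8, 52.6 and 48.3 CPM in deficient libraries, also without overlap (log2 1.23 with an SE of 0.15, adjusted p = 1.1e-05 by edgeR). Il15, a cytokine for lymphocytes, was 1.85-fold higher at 7.33 ± 2.07 CPM (log2 0.89 with an SE of 0.17, adjusted p = 0.000542 by edgeR). In the other direction the cytokine Il11 went from 6.91, 7.39, 7.81 and 7.75 CPM to 0.553, 0.765, 0.287 and 0.355 CPM (log2 -3.91 with an SE of 0.19, adjusted p = 2.35e-10 by edgeR). The prostaglandin synthase Ptgs2 (27.8 ± 0.895 against 13.0 ± 0.545 CPM, log2 -1.10), the alarmin Il33 (log2 -1.36) and the cytokine Lif (log2 -0.99) were also lower, each with an edgeR adjusted p of 3.09e-05 or less. Il6 did not pass the test (log2 0.37, edgeR adjusted p = 0.161).

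Components and feedback genes of NF-kappaB, a transcription factor that drives inflammatory genes, were mostly higher. Of 13 tested, 8 were higher and 1 lower, against 21.1% and 21.3% of all tested genes, with a median log2 change of 0.25. None was lower without wildtype library 9, 10, 13 or 14 or deficient library 11 or 15. Tnfaip2 (5.35 ± 1.52 against 12.2 ± 3.01 CPM), Traf1 (3.44 ± 0.508 against 6.85 ± 0.706 CPM) and the inhibitor Nfkbie (28.8 ± 2.46 against 41.0 ± 4.81 CPM) were higher without overlap of the genotypes, by 1.19, 1.00 and 0.51 on the log2 scale (edgeR adjusted p = 9.56e-05, 9.24e-06 and 0.00013). Genes that restrain inflammation or report its resolution were more often lower. Of 19 tested, 9 were lower and 2 higher, against 21.3% and 21.1% of all tested genes. The count of higher genes was 0 without wildtype library 13 and 1 without wildtype library 14 or deficient library 11, 12 or 16. Annexin A1, Anxa1, a mediator of resolution that also tags dying cells, stood at 589, 553, 532 and 521 CPM in wildtype and 343, 349.7, 263 and 273 CPM in deficient libraries (log2 -0.84 with an SE of 0.08, adjusted p = 7.34e-07 by edgeR). The cytokine signalling inhibitor Socs3 was lower by 1.02 and Tnfaip6, which limits leukocyte entry, by 1.19 on the log2 scale (edgeR adjusted p = 8.13e-06 and 7.29e-05). Of 21 interferon-responsive genes tested, 4 were higher and 6 lower, against 21.1% and 21.3% of all tested genes. The transcription factor Irf1 was 2.38-fold higher (7.76 ± 0.988 against 18.4 ± 3.09 CPM), and Usp18, which dampens interferon signalling, was lower by 2.41 from a level of 1.80 ± 0.300 CPM (edgeR adjusted p = 5.92e-07 and 6.43e-07).

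Among early response genes and genes of growth factor signalling, more were lower than higher in deficient cells. Of 22 immediate early transcription factors tested, 12 were lower and 2 higher, against 21.3% and 21.1% of all tested genes. Without wildtype library 13, 1 was higher. Jun, a subunit of AP-1, stood at 171, 175, 148 and 159 CPM in wildtype and 63.3, 68.3, 56.3 and 56.3 CPM in deficient libraries (log2 -1.42 with an SE of 0.07, adjusted p = 2.57e-10 by edgeR). Cebpd, Nr4a3 and Egr3 were lower by 1.34, 1.32 and 0.90 on the log2 scale (edgeR adjusted p = 6.37e-06, 0.000122 and 1.01e-06), whereas Fos, Egr1 and Junb did not pass the test (log2 -0.14, 0.13 and 0.20). Among ligands of the EGF receptor and feedback genes of the MAP kinase pathway, 18 were tested. Of these, 9 were lower and 3 higher, against 21.3% and 21.1% of all tested genes. Of the lower ones, 8 changed by at least 1.5-fold, against 7.67% of all tested genes. The ligand epiregulin, Ereg, stood at 94.7, 94.4, 101 and 98.9 CPM in wildtype and 31.9, 28.6, 27.1 and 30.9 CPM in deficient libraries (log2 -1.72 with an SE of 0.06, adjusted p = 2.91e-12 by edgeR). Amphiregulin, Areg, was lower by 1.40 (63.3 ± 2.14 against 24.1 ± 0.979 CPM), the phosphatase Dusp4 by 1.41 and the feedback inhibitor Spry2 by 1.08 on the log2 scale, each with an edgeR adjusted p of 1.01e-07 or less. Hbegf, another ligand, was higher by 0.37 (edgeR adjusted p = 0.0114), with overlapping groups.

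Stress genes of the endoplasmic reticulum and of amino acid shortage were lower more often than higher. Of 29 tested, 14 were lower and 2 higher (1 higher without wildtype library 13 or 14), against 21.3% and 21.1% of all tested genes. Chac1, a glutathione-degrading enzyme, stood at 19.7, 18.2, 19.4 and 18.2 CPM in wildtype and 5.27, 6.45, 5.21 and 5.42 CPM in deficient libraries (log2 -1.75 with an SE of 0.08, adjusted p = 2.17e-10 by edgeR). The chaperones Pdia4, Hsp90b1 and Hspa5 were lower by 0.73, 0.43 and 0.37 on the log2 scale, and the stress transcription factors Atf3 and Ddit3 by 0.70 and 0.64. Atf4 itself did not pass the test (log2 0.10, edgeR adjusted p = 0.113), and Nupr1 and Asns were higher (log2 0.69 and 0.19). The call of Asns was lost without wildtype library 13 or 14 or deficient library 11 (log2 0.16 to 0.17). Ppp1r15a, which reverses the translation block of this response, was lower by 1.59 and lies in a run of neighbouring genes that were lower together.

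**Figure D3:**
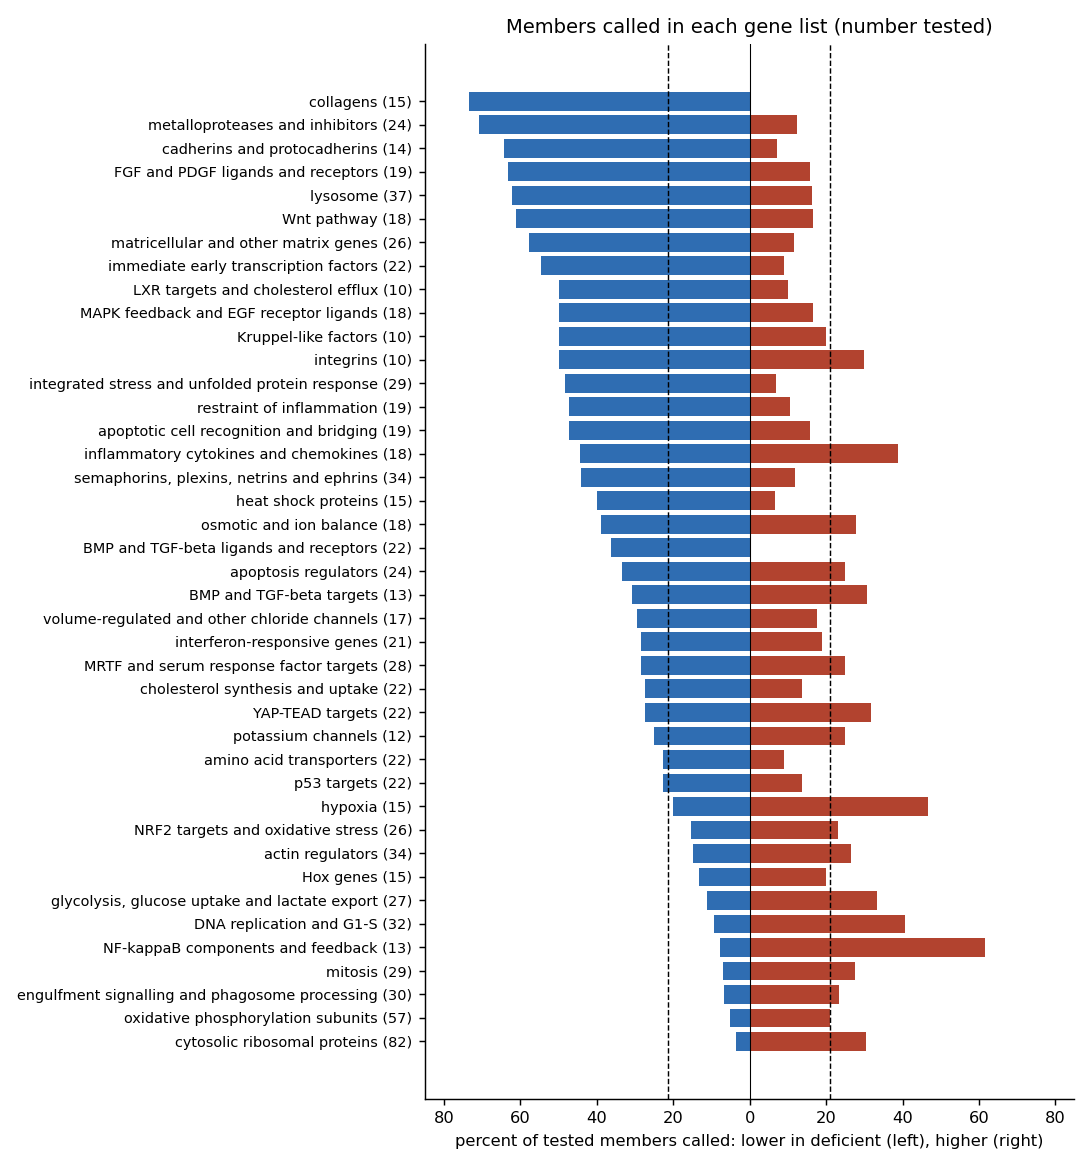
Share of tested members called lower (left bars) and higher (right bars) in Slc12a2-deficient cells for each list with at least 10 tested genes, solute carriers left out, with the number tested in parentheses and dashed lines at 21.3% (lower) and 21.1% (higher) of all 13050 genes. Collagens, metalloproteases, FGF and PDGF genes, lysosomal genes and cadherins have the longest left bars, and NF-kappaB genes the longest right bar.

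Genes by which phagocytes recognise and take up dying cells were measured in cells that had all engulfed. Of 19 recognition and bridging genes tested, 9 were lower and 3 higher, against 21.3% and 21.1% of all tested genes. The scavenger receptor Cd36 stood at 15.2, 14.1, 13.4 and 13.2 CPM in wildtype and 5.57, 5.10, 3.31 and 3.37 CPM in deficient libraries (log2 -1.69 with an SE of 0.14, adjusted p = 8.74e-08 by edgeR). The engulfment receptor Megf10 went from 5.94 ± 0.533 to 1.40 ± 0.325 CPM, and Megf11, its relative, was lower by 1.00. The receptor kinase Mertk was lower by 0.81 and its bridging ligand Pros1 by 0.60 on the log2 scale (edgeR adjusted p = 2.18e-05 and 7.53e-08). The related receptors Axl and Tyro3 were higher by 0.15 and 0.23, Axl at 1746 ± 58.0 against 1941 ± 66.0 CPM, and the integrin subunit Itgb5, which pairs with Itgav in the uptake of dying cells, by 0.49. Downstream, the signalling and phagosome list had 7 of 30 tested genes higher and 2 lower, against 21.1% and 21.3% of all tested genes. The lipid exporter Abca1 was lower by 0.44 with overlapping groups (edgeR adjusted p = 0.00568), a call lost with edgeR's robust option. Dock5, of the Rac activation route, was higher by 0.38, also with overlap.

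Most lysosomal genes were lower, by small amounts. Of 37 tested, 23 were lower and 6 higher, against 21.3% and 21.1% of all tested genes. Only 1 of the lower and 2 of the higher ones changed by at least 1.5-fold (7.67% and 4.55% of all tested genes). The median log2 change was -0.20. Library numbers 9 to 12 alone gave 12 lower. The membrane protein Cd63 went from 615 ± 14.8 to 457 ± 27.9 CPM (log2 -0.43 with an SE of 0.05, adjusted p = 2.94e-06 by edgeR), and the cholesterol carrier Npc1, the glucosidase Gaa and the protease Ctsb were lower by 0.31, 0.29 and 0.27 on the log2 scale. Other cathepsins were higher, with Ctsf at 17.1, 16.6, 14.5 and 14.9 CPM in wildtype and 36.3, 39.9, 33.6 and 32.9 CPM in deficient libraries (log2 1.18 with an SE of 0.08, adjusted p = 7.65e-09 by edgeR) and Ctsd at 71.1 ± 6.65 against 115 ± 10.5 CPM (log2 0.70).

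Genes of metabolism and growth changed in both directions, with more higher than lower in the glycolysis, replication, mitosis and ribosomal lists. Of 27 genes of glucose uptake, glycolysis and lactate export tested, 9 were higher and 3 lower, against 21.1% and 21.3% of all tested genes. The glucose transporter Slc2a1 was lower by 0.30 (60.8 ± 4.38 against 49.3 ± 1.10 CPM) and the first enzyme, Hk2, by 0.65 on the log2 scale, while Pfkm and Tpi1, further along the path, were higher by 0.49 and 0.33 (edgeR adjusted p from 2.51e-07 to 0.000353 for these 4). The lactate transporter Slc16a1 did not pass the test (log2 -0.09, edgeR adjusted p = 0.176). Of 181 solute carriers tested, 35 were higher and 48 lower, near the background in both directions. They included the nucleoside transporter Slc29a1 (67.7 ± 2.83 against 157 ± 10.4 CPM) and the glutamate transporter Slc1a3 (51.9 ± 2.39 against 103 ± 7.36 CPM) among the higher and the creatine transporter Slc6a8 (43.4 ± 0.985 against 20.5 ± 1.87 CPM) among the lower. Among genes of DNA replication and the start of S phase, 32 were tested. Of these, 13 were higher and 3 lower, against 21.1% and 21.3% of all tested genes. Only 1 was lower without wildtype library 9, 10 or 13 or deficient library 11 or 12. The cyclins Ccne1 and Ccnd1 were higher by 0.61 and 0.44. Of 29 mitosis genes tested, 8 were higher and 2 lower, against 21.1% and 21.3% of all tested genes. None of these calls reached 1.5-fold, against 4.55% (higher) and 7.67% (lower) of all tested genes. Of 82 cytosolic ribosomal protein genes tested, 25 were higher and 3 lower, against 21.1% and 21.3% of all tested genes. The 3 lower ones, Rpl13a and Rpl18 among them, all lie in 1 run of neighbouring genes. With each library's trend with gene length removed, 6 ribosomal genes were lower. Library numbers 9 to 12 alone gave 4, 8 and 15 higher genes in the glycolysis, replication and ribosomal lists.

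Some of the called genes, 284 of 5545, lay in runs of neighbouring genes that mostly differed in the same direction. Tested genes were put in the order of the reference assembly CriGri-PICRH-1.0, whose build may differ from the one the authors used, and the median log2 fold change was taken over windows of 25 consecutive genes. The order could be assigned to 11484 tested genes (88.0%). Windows with a median of at least 0.4 in absolute value merged into 7 runs of at least 15 genes, with 305 genes in all (2.66% of those ordered). These runs were chosen by their fold changes, so their values are a description without a test. In the first run, from Clec11a to Rpl18, 48 of 50 tested genes were lower and none higher, with a median log2 change of -1.35 and quartiles of -1.55 and -1.19. The apoptosis gene Bax (79.7 ± 3.21 against 35.7 ± 1.79 CPM), the oxysterol receptor Nr1h2 (59.2 ± 2.02 against 22.8 ± 1.90 CPM), Ppp1r15a (92.8 ± 6.44 against 30.7 ± 2.81 CPM), Rpl13a (1279 ± 39.4 against 561 ± 18.3 CPM) and Rpl18 (970.5 ± 39.5 against 383 ± 28.1 CPM) are among them. These 5 genes were lower by 2.23- to 3.02-fold.

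The other runs were mostly higher. From Cog4 to Gabarapl2 all 17 tested genes were higher (median log2 0.88), from Rpia to Ctnna2 27 of 30 (0.84), from Socs5 to Stap2 58 of 62 (0.82), from Emc2 to Ptdss1 28 of 30 (0.79) and from Trub1 to Slc25a28 78 of 87 (0.72). They hold Pdpr in the first of these, Retsat in the next, Cd320, Ptprs and Uhrf1 in the third, Pabpc1 (847 ± 45.7 against 2118 ± 107 CPM) and Oxr1 in the fourth and Sfxn3 and Ndufb8 in the last. A further run, from Fam126a to Nos3, had 23 of 29 tested genes lower (median log2 -0.55), Insig1 among them. The median of each run had the same sign within library numbers 9 to 12 and 13 to 16, for the first run -1.30 and -1.42. The same libraries had defined the runs, so this sameness of sign is not a separate check of them. In the comparison of apoptotic cells with control in the first experiment, the same 7 runs had medians between -0.06 and 0.10, and no window of 25 genes there passed 0.29 in absolute value. Outside the runs, 4653 of 11179 ordered genes were called (41.6%), so most calls lie elsewhere. No tested collagen, metalloprotease, lysosomal or recognition gene lies in a run, so leaving out the runs could not change their counts. Without the genes in runs, the immediate early genes had 12 lower and 1 higher. The part of the runs in the other gene groups was not tested beyond such counts.

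**Figure D4:**
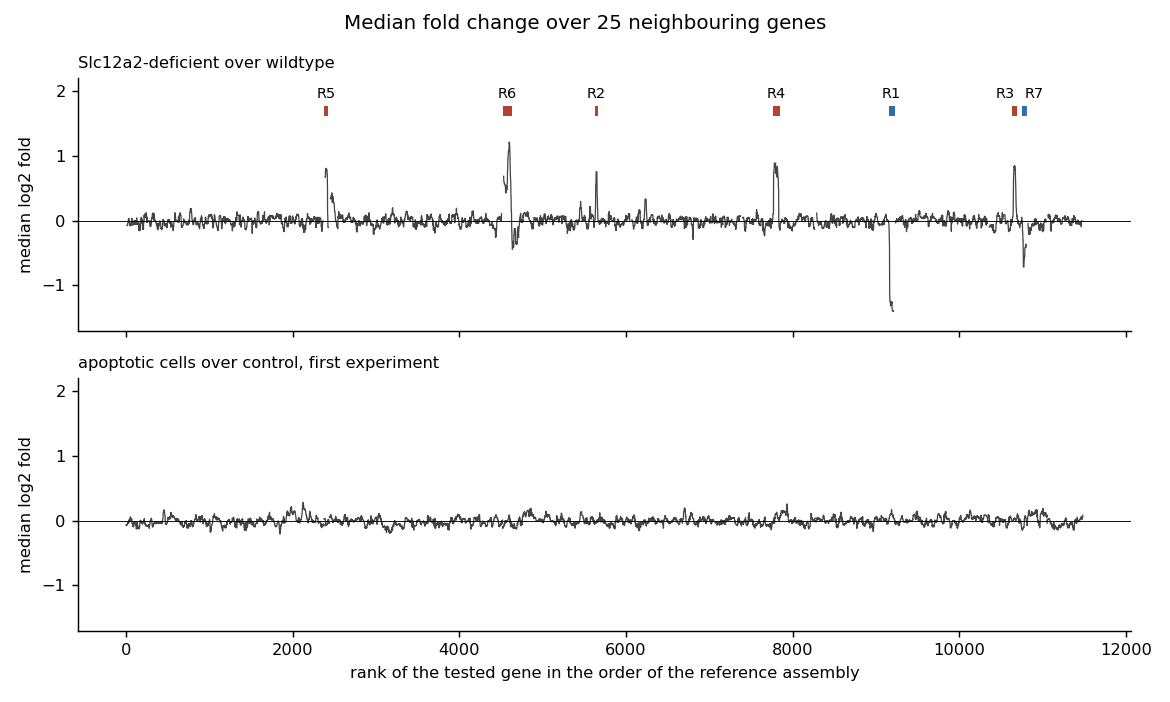
Median log2 fold change over windows of 25 consecutive tested genes, by the rank of the gene in the reference order, for deficient over wildtype cells (upper panel) and for apoptotic cells over control in the first experiment (lower panel), with marks over the 7 runs, numbered R1 (Clec11a to Rpl18) to R7 (Fam126a to Nos3) by the size of their median. The upper panel has plateaus from -1.40 to 1.22 and the lower panel stays between -0.20 and 0.29.

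The genotype effect was last set beside the response to apoptotic cells in unsorted LR73 cells of the first experiment, which shares no library with it. There, 1789 of 13106 genes were called (13.7%), with 6.97% higher and 6.68% lower. Of 12569 genes tested in both comparisons, 5394 were called between genotypes and 1685 with apoptotic cells. The 826 called in both were 15.3% of the first and 49.0% of the second, where 42.9% of these 12569 genes were called between genotypes. Of the 826, 561 (67.9%) went in opposite directions, with 265 higher with apoptotic cells and lower in deficient phagocytes and 296 the reverse, and 265 went in the same direction. No test was made of this share, and the experiments differed in sorting. The time with apoptotic cells was 2 h in the second experiment and is not given here for the first. Sgk1 was 17.7 ± 2.11 CPM in control and 48.4 ± 2.63 CPM with apoptotic cells (log2 1.45, edgeR adjusted p = 5.76e-12), against a log2 change of -1.85 between genotypes. Il11, Nr4a3, Cebpd and Id1 were higher with apoptotic cells by 1.68, 2.07, 2.10 and 1.99 on the log2 scale (edgeR adjusted p = 6.87e-05, 1.4e-06, 0.00163 and 1.8e-08) and lower in deficient phagocytes, as given above. Ereg, Areg, Jun, Adamts1, Chac1, Slc14a1 and the amino acid transporter Slc7a7 showed the same pairing, with increases with apoptotic cells of 0.49, 0.63, 0.58, 0.63, 0.43, 1.27 and 0.72. In the reverse pairing, Irf1, Csf1, Nupr1 and Il13ra2 were lower with apoptotic cells by 0.43, 0.19, 0.46 and 0.41 and higher in deficient cells. Other genes went the same way in both, such as Id2 (log2 0.78 with apoptotic cells), Aqp1 (0.55), Igfbp4, which binds insulin-like growth factors (0.81), and Arhgef17 (1.40).

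**Figure D5:**
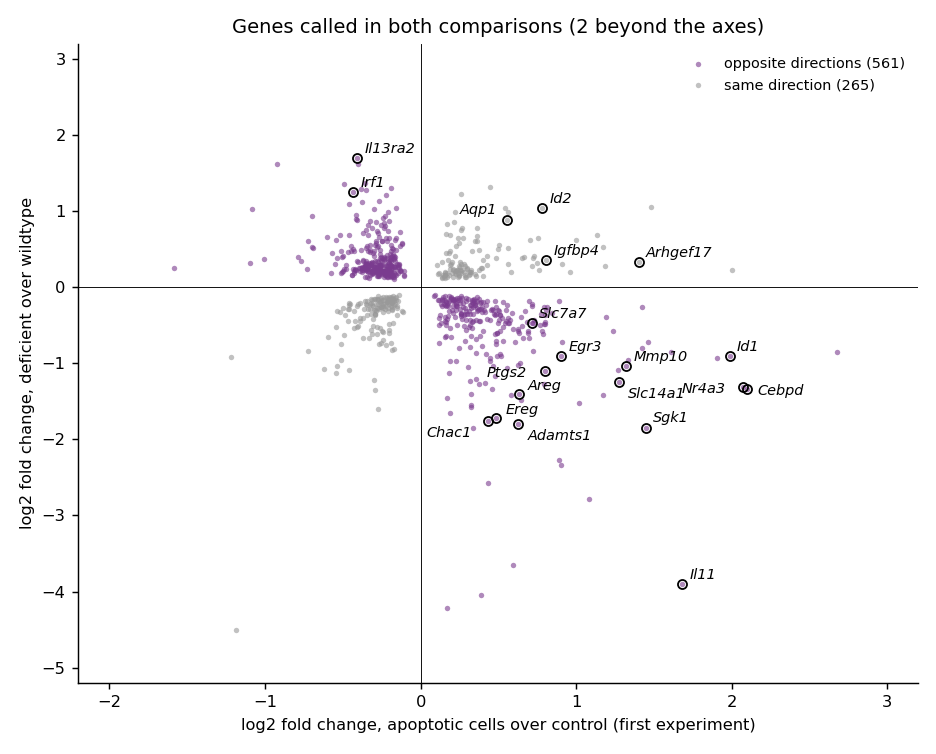
Genes called in both comparisons, with the log2 fold change of apoptotic cells over control on the horizontal axis and of Slc12a2-deficient over wildtype phagocytes on the vertical axis; 2 of the 826 lie beyond the axes. Most points, 561, lie in the quadrants of opposite sign, where Sgk1, Il11, Nr4a3, Cebpd and Id1 are at the lower right, and 265 lie in the quadrants of the same sign.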

How the data were processed

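RNA was isolated with Qiagen kits, made into libraries with the Illumina TruSeq mRNA kit and sequenced as 75 bp paired-end reads, per the labels' protocols. The authors deposited raw fragment counts per gene, made with featureCounts 1.5.0 per the file headers. The submitters' processing notes also name FastQC, STAR and DESeq2. No STAR version or genome build is named there, and strand was not stated, so overlapping and antisense genes cannot be separated.

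The table holds 26776 gene names, 11415 of them identifiers without a symbol, and 22328 matched the reference gene table, whose assembly is CriGri-PICRH-1.0. It was used for names and gene order only. A row with a blank name, 1.34% ± 0.224 of counts in wildtype and 1.42% ± 0.0751 in deficient libraries, was left out. Genes were kept by edgeR's filter with a minimum count of 10 and a minimum total of 15. The main test was edgeR 4.0.16 (R 4.3.3), quasi-likelihood, TMM factors, genotype as the only term, on the 8 libraries, with Benjamini-Hochberg adjustment. The biological coefficient of variation was 6.06%. Each SE was derived from the test, as the absolute log2 fold change over the square root of its F statistic. All 16 libraries of the first experiment were fitted separately in the same way, and the 4 control and 4 apoptotic cell libraries were compared. The libraries with cytochalasin D thus shared in the filter, the scaling factors and the estimate of the spread. Total counts of 23059998 to 28838553 per library put 3 counts at 0.105 to 0.132 CPM. Replicate pairs differed by more than sampling noise (chi-square per degree of freedom 1.89 to 16.9), so none was counted as a duplicate. The calculation was tested on simulated data.

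The comparison and the 51 gene lists were chosen with earlier results of these data known. By rule, genes were named from these: up to 15 per direction with the largest change, a symbol, at least 4 CPM and no overlap of the genotypes; up to 5 abundant ones per direction changed at least 1.5-fold; up to 4 called members per list and direction; the neighbours of Slc12a2; and a set of transport genes. Named after their values were seen were Atf3, Atf4, Clec11a, Col11a2, Col18a1, Col6a1, Col6a2, Col8a1, Col9a1, Crnn, Ctsb, Ddit3, Egr1, Fbn1, Fos, Gaa, Hsp90b1, Hspa5, Id3, Il6, Itgav, Junb, LOC100761756, LOC103159201, Lif, Lrrc2, Mertk, Pros1, Ptgs2 and Vopp1. Alternatives were DESeq2 1.42.0, limma-voom (limma 3.58.1), other scaling, filters and thresholds, a gene length correction, library sets and single libraries left out. Those on neighbouring genes and on the overlap's gene sets were added after seeing the data. Results for a few genes are not reported here.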

Additional observations from a re-analysis of the deposited data

Results flagged for a closer look

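In each group of 4 libraries, the levels of the genes named here and the composition measures were checked for 1 library whose gap to the nearest other was above 0.829 of the whole range (Dixon's criterion). This held in 19 of 376 groups (5.05%), where chance alone gives about 1 in 20, and no library stood out in most of them. Among wildtype libraries, the values that stood above their group were Bmp2 in library 9 at 9.77 CPM, against 8.47 to 8.63 CPM and Col11a2 in library 10 at 1.56 CPM, against 0.589 to 0.715 CPM. Further such values were Hoxc10 in library 13 at 15.3 CPM, against 11.2 to 11.6 CPM and Hoxc8 in library 10 at 3.41 CPM, against 3.02 to 3.06 CPM. Further such values were Nfat5 in library 10 at 369.6 CPM, against 319.9 to 326 CPM and Slc12a4 in library 10 at 78.7 CPM, against 70.9 to 71.5 CPM. The wildtype values that stood below were Adamts1 in library 9 at 122 CPM, against 129 CPM and Dusp4 in library 13 at 70.8 CPM, against 80.5 to 81.1 CPM. Among Slc12a2-deficient libraries, the values that stood above their group were Bnip3l in library 11 at 172 CPM, against 150.2 to 153 CPM and Chac1 in library 12 at 6.45 CPM, against 5.21 to 5.42 CPM. Further such values were Col6a3 in library 15 at 0.216 CPM, against 0.0729 to 0.0888 CPM and LOC103159201 in library 16 at 0.0444 CPM, against 0 CPM. A further such value was Ttyh3 in library 11 at 48.7 CPM, against 45.1 to 45.5 CPM. The Slc12a2-deficient values that stood below were Acsl6 in library 15 at 1.01 CPM, against 1.31 to 1.33 CPM and Areg in library 15 at 22.6 CPM, against 24.5 to 24.6 CPM. Further such values were Axl in library 11 at 1842 CPM, against 1964 to 1978 CPM and Postn in library 12 at 27.5 CPM, against 31.1 to 31.8 CPM. Further such values were Ptprs in library 15 at 139.7 CPM, against 148 to 149 CPM and Slc12a4 in library 16 at 81.6 CPM, against 85.4 to 86.1 CPM. The genotypes did not overlap for these genes other than Nfat5 and Col11a2, which had overlapping groups.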

How the results depend on the processing

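Of 5545 called genes, a fold of at least 1.5 left 1595 (594 higher, 1001 lower), and library numbers 9 to 12 alone gave 3694 (1773 higher). The first of these adds a threshold and the second has 4 libraries fewer. DESeq2 gave 5363, limma-voom 5514, edgeR's robust option 5531, no filter 5896 and an adjusted p under 0.01 gave 3915. Without a filter 1142 genes in place of 704 passed 2-fold, as more low genes were tested. With an adjusted p under 0.01, 307 genes in place of 826 were called in both comparisons, 74.3% of them in opposite directions.

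Leaving out 1 library at a time gave 4774 to 5690 called genes, 2359 to 2861 higher, 2397 to 2829 lower, 705 to 780 past 2-fold, 702 to 863 called in both comparisons, 65.0% to 71.2% of them opposite, and a Slc12a2 level of 24.97% to 26.2% of wildtype. Of 161 called genes that the text names, 154 kept the call in these fits, with DESeq2, limma-voom and each other scaling, filter and fit on all libraries, and 7 lost it in some. Library numbers 9 to 12 alone lost 12 of these calls, 13 to 16 alone 4, an adjusted p under 0.01 lost 9 and a fold of at least 1.5 lost 44. None reversed.

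Library numbers do not establish a pairing. Deviations of libraries from the same set, across genotypes, correlated at 0.0367 to 0.141, and those from different sets at -0.152 to -0.0256. The replicate block on the library set gave 6226 called genes (3086 higher, 3140 lower) and lost no named call. Of the named genes that did not pass, Junb (log2 0.20, edgeR adjusted p = 0.00102) and Col8a1 (log2 -0.20, edgeR adjusted p = 0.0102) passed with the block. Depth limits genes with few counts: 3 counts are 0.105 to 0.132 CPM.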

Other observations

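Several groups of receptors and adhesion genes outside those described above were lower in deficient cells more often than the 21.3% of all tested genes. Of 14 cadherins and protocadherins tested, 9 were lower (5 in library numbers 9 to 12 alone) and 1 higher (none in those libraries). The protocadherin Pcdh7 went from 62.1 ± 3.43 to 33.7 ± 3.93 CPM (log2 -0.88 with an SE of 0.07, adjusted p = 9.48e-08 by edgeR), and the neural cadherin Cdh2 was the higher one (log2 0.22). Of 18 genes of the Wnt pathway, which signals through beta-catenin, 11 were lower and 3 higher. Axin2, a feedback inhibitor that the pathway itself induces, was at 7.73, 7.22, 6.24 and 7.07 CPM in wildtype and 3.19, 3.68, 3.09 and 2.62 CPM in deficient libraries, with no overlap (log2 -1.16 with an SE of 0.12, adjusted p = 1.2e-06 by edgeR). The ligand Wnt4 was lower by 0.66 on the log2 scale and the receptors Fzd2 and Fzd3 were higher by 0.48 and 0.54. Of 19 FGF and PDGF ligands and receptors, 12 were lower and 3 higher, with the receptor Fgfr1 and the hepatocyte growth factor Hgf lower by 0.68 and 0.65. The receptor Notch3 was lower by 1.27 and its ligand Jag1 by 0.60. Of 34 guidance genes, 15 were lower and 4 higher (8 with no filter on low counts), among them the plexins Plxna2 (log2 -1.14) and Plxna3 (log2 0.58). Of 10 integrins, 5 were lower and 3 higher, with the fibronectin receptor subunit Itga5 lower by 0.49 and the laminin receptor subunit Itga3 higher by 0.62.

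Genes of the response to low oxygen went both ways. Of 15 tested, 7 were higher and 3 lower, against 21.1% and 21.3% of all tested genes. The mitophagy receptors Bnip3 and Bnip3l were higher by 0.57 and 0.74 on the log2 scale, and the angiogenic factor Vegfa was lower, at 118 ± 6.95 against 81.3 ± 5.17 CPM (log2 -0.54).

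Transcripts carried in with corpses were looked for as well. In the unsorted first experiment, 10 transcripts, among them the T lymphocyte genes Zap70 and Lck, met the rule for this. They were under 0.1 CPM in phagocytes alone and in phagocytes with cytochalasin D alone. With apoptotic cells they were called and at least 2 CPM, and there they summed to 31.2 CPM. In the sorted libraries of both genotypes the same 10 summed to between 0 and 0.174 CPM (0.111 ± 0.0592 wildtype and 0.0909 ± 0.0830 deficient, two-sided exact permutation p = 0.714). Across genes, Spearman's correlation of the log2 fold change with gene length was -0.0477 for genotype and -0.256 for apoptotic cells. Genes are not independent, so no p is given. The runs were also set beside phagocytes with apoptotic cells in the first experiment, whose libraries were normalized separately. The median difference from those libraries, on the log2(CPM + 0.5) scale, was 0.34 in wildtype and -1.03 in deficient cells for the run from Clec11a to Rpl18, and -0.99 and -0.12 for the run from Socs5 to Stap2. From Cog4 to Gabarapl2 the 2 values were -0.24 and 0.47, from Rpia to Ctnna2 -0.64 and 0.12 and from Emc2 to Ptdss1 -0.27 and 0.44. From Trub1 to Slc25a28 they were -0.50 and 0.23, and from Fam126a to Nos3 0.27 and 0.02.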
